A study of Mus musculus with 107 samples.

Results

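The cholesterol synthesis genes are a list of 28 mouse genes. They comprise enzymes of sterol synthesis up to cholesterol, the SREBP transcription factors with the proteins that hold or release them, and the sterol carrier Stard4. They were followed in ear skin taken 24 h after sulfur mustard, an alkylating blister agent. Members were found by gene symbol on a pair of Affymetrix mouse arrays, array A and array B, and each gene was represented by its probe set with the highest mean deposited signal. Of the 28 genes, 27 were measured, by 59 probe sets among the 22690 of array A and 22575 of array B. The remaining gene, Acat2, had no probe set under its symbol. The chosen probe sets lay on array A for 24 genes and on array B for 3 genes (Idi2, Insig1 and Hsd17b7), and all 27 had a mean signal over all ears above the minimum of 100. Idi2 passed it only through the ears with mustard, where it is high, and in methylene chloride ears 26 of the 27 had a mean above it. Idi2 is therefore set against those ears by its values and a lower bound, with no test. The list names Idi2 as moving against the others, so that it was drawn up with earlier results of these data known.

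The groups with mustard had 0.08 mg (0.5 µmol) of it in 5 µL of methylene chloride on the inner side of the right ear. Of these, 6 ears had 6.25 mg of dimercaprol (a dithiol), 6 had 1.34 mg of indomethacin (a cyclooxygenase inhibitor) and 5 had octylhomovanillamide (a capsaicin analog) 15 min earlier, and 5 ears had mustard alone. The octylhomovanillamide dose is 0.6 mg in one label and 0.585 mg in another. The reference was 21 left ears, which the protocol describes as given methylene chloride and no mustard. Of these, 13 came from pretreated animals, and the labels do not say where on those animals the drug was put, so whether drug or ethanol reached these left ears is unknown. On array A only, animals without mustard gave 4 dimercaprol ears, 4 indomethacin ears and 5 octylhomovanillamide ears. These were set against 3 ethanol ears, with 5 naive ears of 3 animals beside them. The ethanol ears were left ears of animals 507, 515 and 520, whose right ears had dimercaprol, indomethacin and octylhomovanillamide. Each comparison with ethanol thus holds a shared animal, and whether drug reached these left ears is unknown. The drugs were given in ethanol, in 10, 20 and 30 µL for dimercaprol, indomethacin and octylhomovanillamide, and no ethanol is named for the ears with mustard alone, so a drug and its ethanol cannot be told apart where pretreated ears are set against mustard ears. The labels used here give no strain, sex or age.

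Cells build cholesterol from acetyl-CoA through mevalonate, the isoprenoid diphosphates, squalene and lanosterol, and a branch before squalene feeds protein prenylation, ubiquinone and dolichol. When membrane sterol is low, SCAP carries SREBP precursors from the endoplasmic reticulum to the Golgi, where they are cut and released as activators of nearly every gene of the pathway; INSIG proteins hold SCAP back when sterol is high. In skin, the epidermis makes its own cholesterol for the lipid layers of its water barrier, and sebaceous glands make large amounts of lipids.

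Values are deposited signals rescaled so that each array has the same trimmed mean, and differences are of log2(scaled signal + 16) with their standard error (SE). Adjusted p-values are limma's, Benjamini-Hochberg adjusted over all 15953 probe sets kept on array A or all 17287 on array B, and a gene is called at an adjusted p under 0.05. The trimmed mean before rescaling ran from 66.3 to 267 on array A and from 18.7 to 51.7 on array B. Mustard ears 5 and 37 stood apart in array quality. Their array A trimmed means were 85.7 and 66.3 and their log2 ratios of Gapdh 3' to 5' probe sets were 0.63 and 0.78. That ratio was -0.05 to 0.08 in the other 3 mustard ears and -0.25 to 0.24 in the methylene chloride ears. On array B mustard ear 1 was dim as well. Trimmed means there were 23.3, 21.6 and 18.7 in mustard ears 1, 5 and 37, against 31.4 to 51.7 in methylene chloride ears. Leaving out ears 5 and 37 therefore keeps a dim array for Idi2, Insig1 and Hsd17b7. The probe sets kept included 8 of 8 basal keratinocyte, 10 of 10 differentiating keratinocyte, 13 of 14 sebaceous gland and 12 of 12 skeletal muscle markers. These are whole skin biopsies, in which fewer cells of a type and less RNA per cell cannot be told apart.

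Promoter windows of 300 bases around the gene start (RefSeq, GRCm38.p6) were at hand for 24 of the genes, as 32 windows. Shown are Hmgcs1, as the member whose window held the sterol response element searched for, Cyp51 and Msmo1, as 2 of the members furthest below the methylene chloride ears, and the neighbours Idi1 and Idi2, the first lower and the other higher in mustard ears. Capitals mark the sterol response element TCACNCCAC and the CCAAT box bound by NF-Y, on either strand (ATTGG on the strand printed).
Hmgcs1: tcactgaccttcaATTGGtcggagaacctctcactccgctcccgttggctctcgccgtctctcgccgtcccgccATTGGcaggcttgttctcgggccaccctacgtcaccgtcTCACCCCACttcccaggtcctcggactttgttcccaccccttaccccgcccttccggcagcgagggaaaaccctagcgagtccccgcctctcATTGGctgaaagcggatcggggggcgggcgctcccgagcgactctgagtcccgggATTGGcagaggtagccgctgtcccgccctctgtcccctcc
Cyp51: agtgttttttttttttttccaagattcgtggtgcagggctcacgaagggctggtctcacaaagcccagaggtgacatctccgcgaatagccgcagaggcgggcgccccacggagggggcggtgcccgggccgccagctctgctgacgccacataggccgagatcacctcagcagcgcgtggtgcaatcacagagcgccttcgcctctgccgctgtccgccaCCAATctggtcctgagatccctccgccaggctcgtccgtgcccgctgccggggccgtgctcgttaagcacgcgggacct
Msmo1: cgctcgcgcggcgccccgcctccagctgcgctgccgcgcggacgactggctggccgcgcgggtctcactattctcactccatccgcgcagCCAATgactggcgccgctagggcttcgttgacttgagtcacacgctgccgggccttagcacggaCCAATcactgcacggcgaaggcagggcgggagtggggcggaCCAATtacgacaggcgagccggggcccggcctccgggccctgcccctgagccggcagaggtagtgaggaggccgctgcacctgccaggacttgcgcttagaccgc
Idi1: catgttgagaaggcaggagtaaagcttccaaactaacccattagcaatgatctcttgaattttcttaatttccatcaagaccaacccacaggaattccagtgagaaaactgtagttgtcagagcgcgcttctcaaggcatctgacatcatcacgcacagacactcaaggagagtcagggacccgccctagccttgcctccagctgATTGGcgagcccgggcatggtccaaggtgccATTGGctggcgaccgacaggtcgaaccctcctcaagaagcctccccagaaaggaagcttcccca
Idi2: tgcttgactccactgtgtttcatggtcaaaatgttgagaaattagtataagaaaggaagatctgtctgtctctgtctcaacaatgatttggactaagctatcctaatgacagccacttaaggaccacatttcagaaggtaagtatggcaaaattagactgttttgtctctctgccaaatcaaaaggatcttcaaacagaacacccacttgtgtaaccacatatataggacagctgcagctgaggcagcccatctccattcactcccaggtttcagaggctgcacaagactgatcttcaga

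The windows span chr13:119690101-119690400 on the plus strand for Hmgcs1, chr5:4104648-4104947 on the minus strand for Cyp51, chr8:64733529-64733828 on the minus strand for Msmo1, and chr13:8885356-8885655 and chr13:8952613-8952912 on the plus strand for Idi1 and Idi2. TCACNCCAC was found in 1 of the 32 member windows, that of Hmgcs1, and in 1.24% of all 32851 windows. CCAAT was found in 65.6% of the member windows (21 of 32, of 20 genes) and in 37.4% of all windows, and the GC box GGGCGG, not marked above, in 75% of the member windows (24 of 32) and in 35.7% of all windows. The motifs were searched on both strands and do not overlap in the letters marked. Idi1 and Idi2 are both protein-coding genes of chromosome 13, at 8885606-8892396 and 8952863-8960935. The Idi1 window held 2 CCAAT boxes and 1 GC box, and the Idi2 window held none of the 3 motifs.

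Mustard alone was followed by lower signal of most of the pathway. Against methylene chloride ears, 22 of the 27 members fell and 4 were not called (Tm7sf2, Scap, Dhcr7 and Ggps1), with a median log2 difference of -0.66. Idi2 lay on the other side, higher in all 5 mustard ears. Among all probe sets kept, 42.8% were called on array A and 26% on array B, 23.4% and 13.1% as lower, and the median difference was 0 on array A and 0.14 on array B. Of the 24 members on array A, 20 fell. On signals as deposited, the median over every array A probe set was -0.52 and 24 of the 27 members lay below the median of all probe sets of their array. Counts of calls over settings take Idi2 in as a higher member. Its call carries no weight, as it passed the minimum only through the ears with mustard. Of the 22 members that fell, Lbr, Lss, Mvk, Nsdhl, Sc5d and Srebf2 lost their calls in at least 1 of the 18 alternative settings. The others kept theirs in each.

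**Figure D1:**
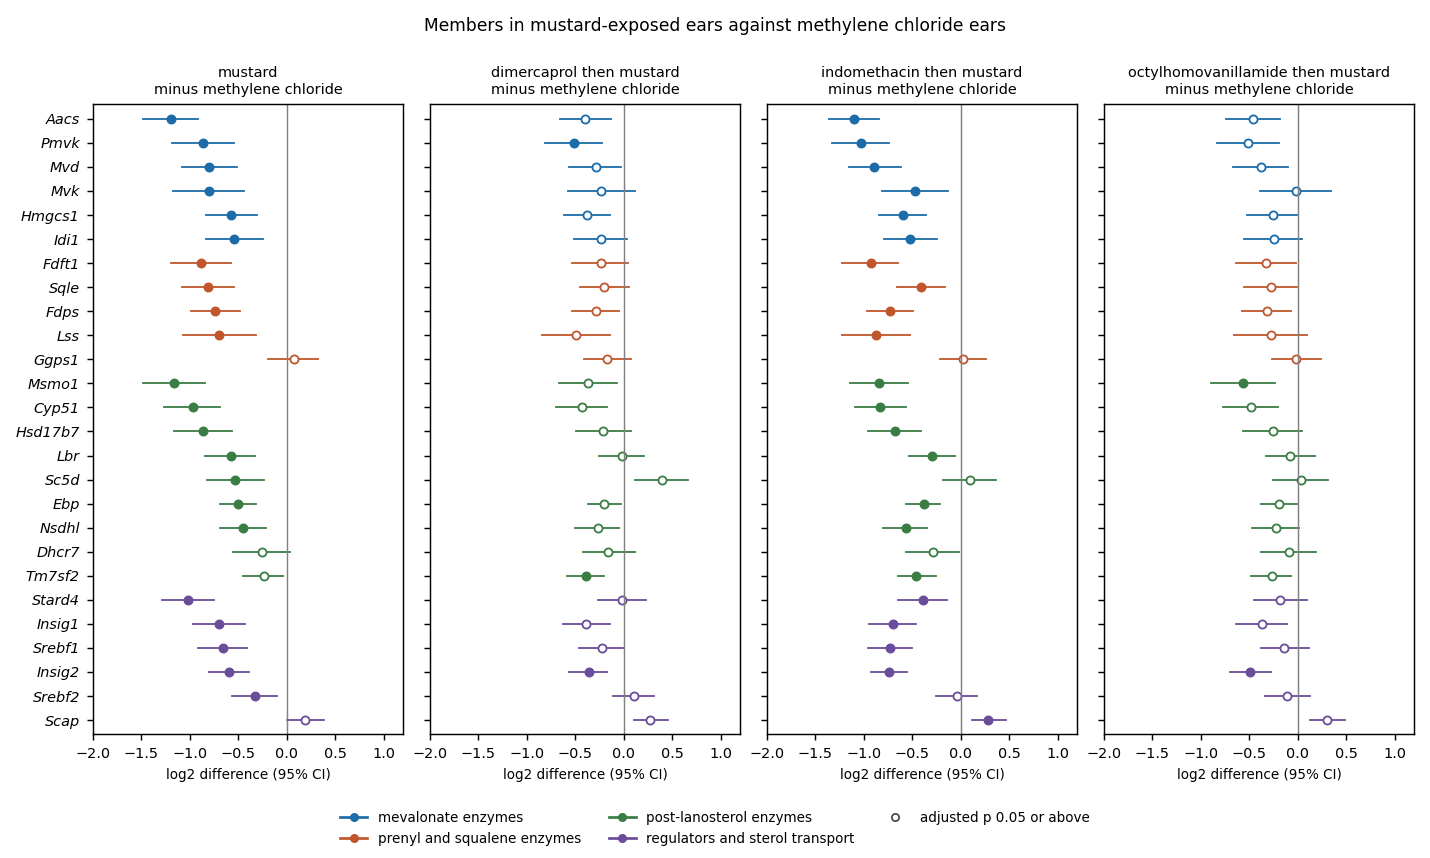
Log2 difference (x axis) of 26 members (y axis, grouped by role; Idi2 left out) from the methylene chloride ears, for ears with mustard alone and for each drug before mustard; bars are 95% confidence intervals and filled points are called. With mustard alone 22 members lie left of 0 as called points; the 4 panels share the 21 methylene chloride ears.

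The enzymes that lead to and through mevalonate fell in 6 of 7 cases. Aacs, which activates acetoacetate for lipid synthesis, had scaled signals of 702, 495, 942, 1440 and 509 in the mustard ears of animals 1, 3, 5, 36 and 37, against 1380, 1730 and 2240 (lowest, median and highest) in the methylene chloride ears. The mustard ear of animal 36 lay just inside the methylene chloride range and the other 4 below all 21 methylene chloride ears. The difference was -1.19 ± 0.14 (adjusted p = 8.39e-09). Pmvk and Mvk, the phosphomevalonate and mevalonate kinases, fell by 0.86 ± 0.16 and 0.80 ± 0.18. Mvd, which makes isopentenyl diphosphate, fell by 0.80 ± 0.14, and Hmgcs1, the HMG-CoA synthase, fell by 0.57 ± 0.13.

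Idi1 and Idi2 both encode isopentenyl diphosphate isomerases, which interconvert the 5-carbon building blocks; in humans IDI2 is known as the isoform of skeletal muscle. Idi2 had signals of 1200, 3210, 1160, 240 and 751 in the mustard ears of animals 1, 3, 5, 36 and 37, against a lowest, median and highest of 16.4, 25.3 and 230 in the methylene chloride ears. Every mustard ear lay above every methylene chloride ear, animal 36 by the smallest margin, as held for 0.688% of all array B probe sets. Idi2 was listed with its rise known and passed the minimum through these ears, so that share carries no weight for it. Only 4 of the 21 methylene chloride ears reached the minimum of 100. With that minimum in place of lower values, Idi2 was at least 8.78-fold higher in mustard ears (geometric mean 958, n = 5). Idi1 moved the other way, with 3100, 2210, 3080, 3810 and 2400 in the mustard ears, against 2370, 4140 and 8510 in the methylene chloride ears. Only 1 mustard ear lay below all methylene chloride ears, and the difference was -0.54 ± 0.14 (adjusted p = 0.00239). The other probe set of Idi1 gave -0.57 ± 0.12, while Idi2 was read by 1 probe set. Of the 12 skeletal muscle markers none was called in this comparison (percentages of all probe sets above), and their summed signal on array A ran from 71600 to 117000 in mustard ears and from 23000 to 134000 in methylene chloride ears.

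Of the 5 enzymes from the prenyl diphosphates to lanosterol, 4 fell. Sqle, the squalene epoxidase, had 2760, 1750, 2130, 3830 and 1250 in the mustard ears of animals 1, 3, 5, 36 and 37, against 3170, 3810 and 6260 in the methylene chloride ears. Animal 36 lay near the methylene chloride median and the other 4 below the whole range. The difference was -0.81 ± 0.13 (adjusted p = 3.88e-06). Fdft1, the squalene synthase, fell by 0.88 ± 0.15, Fdps, the farnesyl diphosphate synthase, by 0.74 ± 0.13, and Lss, which closes the rings to lanosterol, by 0.70 ± 0.19. Probe sets of a gene did not all move alike: the other probe sets of Lss gave -1.35 ± 0.19 and 0.01 ± 0.18, and of Fdft1 -0.90 ± 0.15, -0.74 ± 0.35 and -0.16 ± 0.19. Ggps1, the geranylgeranyl diphosphate synthase at the branch to prenylation, was not called, at 0.07 ± 0.13 (adjusted p = 0.712). Its other probe sets ran from -0.50 to 0.18, and its own mustard mean of 327 ± 148 (SD, n = 5), against 297 ± 44 in methylene chloride ears (SD, n = 21), held ear 37 at 590.

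After lanosterol, 7 of 9 enzymes fell. Cyp51, the lanosterol demethylase, had 1820, 1400, 2030, 2760 and 1420 in the mustard ears, against 2910, 3570 and 5640 in the methylene chloride ears, in the order of animals and of lowest, median and highest used above. All 5 mustard ears lay below all 21 methylene chloride ears, which held for no other member that fell and for 1.69% of all array A probe sets. The difference was -0.97 ± 0.14 (adjusted p = 5.35e-07). Msmo1, the methylsterol monooxygenase, had 4210, 4960, 6410, 8510 and 2090 in the mustard ears, against 7830, 10100 and 14000 in the methylene chloride ears, a difference of -1.16 ± 0.16 (adjusted p = 1.79e-07). Animal 36 alone reached into the methylene chloride range. Hsd17b7, a sterol ketoreductase read on array B, fell by 0.86 ± 0.15. Falls of 0.58 ± 0.13 for Lbr, a sterol reductase that is also the lamin B receptor, 0.53 ± 0.14 for Sc5d, the sterol desaturase, 0.50 ± 0.09 for Ebp, the sterol isomerase, and 0.45 ± 0.12 for Nsdhl, a dehydrogenase in demethylation, were smaller. The 2 members not called were Tm7sf2, another sterol reductase (-0.24 ± 0.10, adjusted p = 0.052), and Dhcr7, which makes cholesterol from its last precursor (-0.26 ± 0.14, adjusted p = 0.14). Sc5d did not hold under several settings: its difference was -0.21 with a fixed effect per animal and -0.38 without mustard ears 5 and 37, neither called.

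Among regulators and transport, 5 of 6 fell. Stard4, a carrier that moves sterol between membranes, had 603, 591, 434, 856 and 490 in the mustard ears, against 726, 1210 and 1630 in the methylene chloride ears. Only animal 36 lay inside the methylene chloride range, and the difference was -1.02 ± 0.13 (adjusted p = 7.68e-08). Insig1, a retention protein and itself an SREBP target, had 1590, 2740, 2360, 4060 and 2140 in the mustard ears, against 3090, 4130 and 5390 in the methylene chloride ears, a difference of -0.70 ± 0.13 (adjusted p = 6.51e-05). Again 4 of 5 mustard ears lay below the methylene chloride range. Insig2 fell by 0.60 ± 0.10 and Srebf1, whose product drives fatty acid genes as well, by 0.66 ± 0.12.

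Srebf2, which encodes the SREBP most tied to cholesterol synthesis, had 711, 819, 693, 1170 and 650 in the mustard ears, against 788, 1010 and 1220 in the methylene chloride ears. The groups overlapped in 2 of 5 mustard ears, and the difference was -0.33 ± 0.11 (adjusted p = 0.0168). It lost the call without animal 1, 5 or 37 (adjusted p = 0.0577, 0.0707 and 0.0952), and without both ears 5 and 37 (0.385). Scap, the SREBP escort, stood at 0.19 ± 0.09 (adjusted p = 0.0916), and it was called as higher, at 0.33, without animal 37 (adjusted p = 0.00296).

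**Figure D2:**
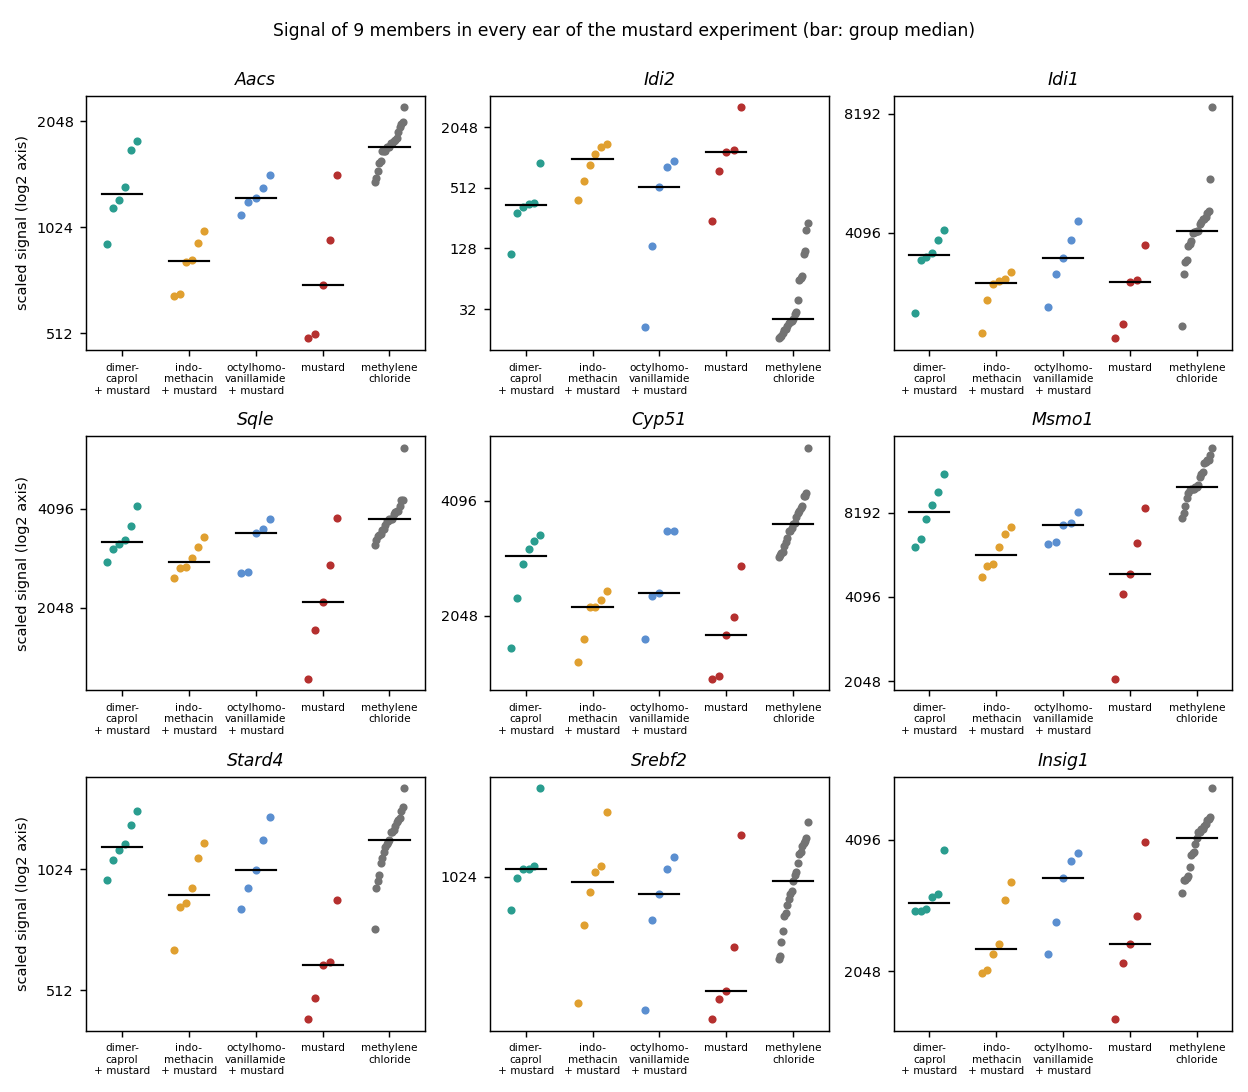
Scaled signal (y axis, log2 scale) of 9 members in every ear of the mustard experiment, with each group's ears spread sideways by value and bars at group medians. Idi2 is the panel in which mustard ears (240 to 3210) lie above methylene chloride ears (16.4 to 230); in the Aacs, Sqle, Msmo1, Stard4 and Insig1 panels 4 of 5 mustard ears lie below the methylene chloride range.

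Ears with mustard alone varied among themselves. Below the methylene chloride mean lay 25 of 27 members in animals 1, 3, 5 and 37 and 15 of 27 in animal 36, with median differences of -0.60, -0.90, -0.67, -0.90 and -0.03 for animals 1, 3, 5, 37 and 36. Among the methylene chloride ears that median ran from -0.21 to 0.45. Animal 36 also had the lowest Idi2 of the mustard ears, and its left ear had one of the higher values of the methylene chloride ears, so that Idi2 was 240 on its right ear and 197 on its left. Across the 4 mustard animals whose left ear was measured too, 12 of 27 members were lower on the right ear in all 4 and Idi2 alone was higher in all 4. Of all probe sets, 14.2% on array A and 9.53% on array B were lower in all 4, and 13.5% and 14% were higher. For Aacs the right minus left difference was -1.65, -1.77, -0.45 and -1.77 in the same animals.

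**Figure D3:**
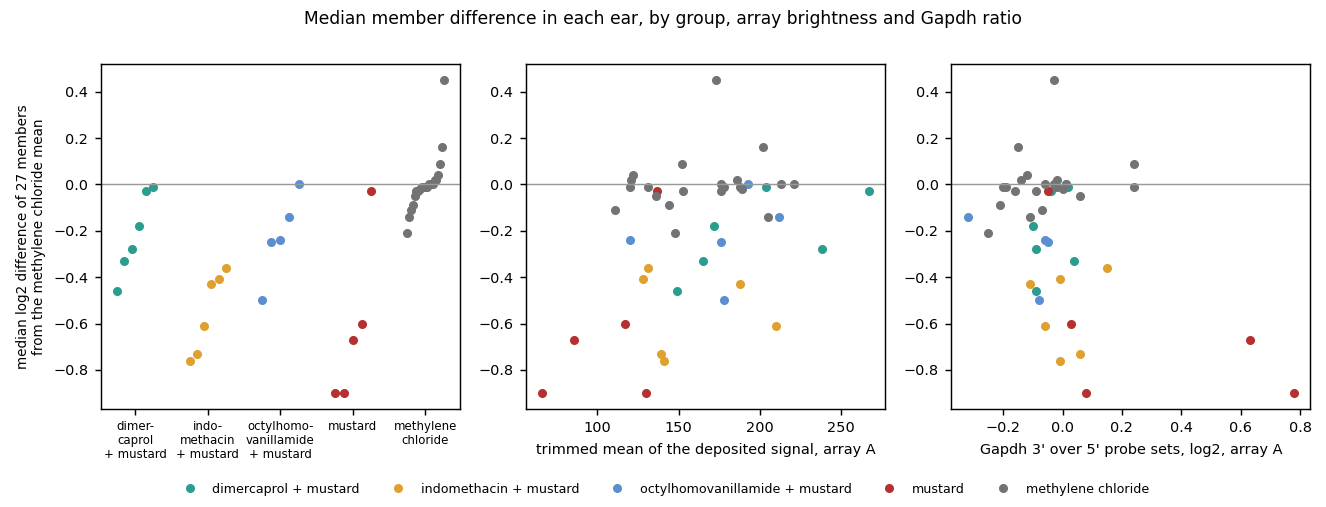
Median log2 difference of the 27 members from the methylene chloride mean in each ear (y axis), by group (left) and against the array A trimmed mean (middle) and the Gapdh 3' to 5' log2 ratio (right). Of the mustard ears, animal 36 lies at -0.03 within the methylene chloride range, and ears 5 and 37, at -0.67 and -0.90, have the lowest brightness and the highest Gapdh ratio.

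Array quality moved with this comparison, so its part and that of mustard cannot be told apart here. Counts with ears left out or covariates added are given as they came. Without mustard ears 5 and 37, 19 members were called (2 higher and 17 lower). With the Gapdh ratio as a covariate 20 were called, and with array brightness 19, in each case 2 of them higher. The higher members were Scap and Idi2 in these fits, and the call of Idi2 carries no weight, as said above.

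Markers of skin cell types were counted as well, where 42.8% of all probe sets were called on array A and 26% on array B. Of sebaceous gland markers 7 of 13 fell and 2 rose, and of basal keratinocyte markers 4 of 8 fell and 2 rose. Of differentiating keratinocyte markers 3 of 10 fell and 4 rose, of hair follicle markers 3 of 11 fell and 1 rose, and of adipocyte markers 3 of 6 fell. Macrophage markers rose in 3 of 10 cases, and neutrophil markers rose in 3 of 5 and fell in 1. Summed array A signal of the sebaceous gland markers ran from 58800 to 83100 in mustard ears, with a median of 80000. In methylene chloride ears it ran from 66600 to 99800, with a lower median of 75200. For basal keratinocyte markers it ran from 41900 to 66600 and from 52900 to 80700 in the same groups, with medians of 58800 and 67000. The part of cell makeup in the members' fall was not tested.

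Genes next to the pathway were followed through lists of other SREBP-2 targets, of efflux and storage, and of the isoprenoid branch. Of 8 other SREBP-2 targets 5 fell and 1 rose. Acly, which makes cytosolic acetyl-CoA from citrate, fell by 0.68 ± 0.10 and Acss2, which makes it from acetate, fell by 0.89 ± 0.18. Fabp5, the fatty acid carrier of keratinocytes, rose by 0.55 ± 0.10. Of 16 genes of efflux, storage and oxysterols 6 fell and 2 rose. Abca1, the cholesterol exporter, fell by 1.21 ± 0.18, Nceh1, a cholesteryl ester hydrolase, by 1.61 ± 0.34, and Mylip, which marks lipoprotein receptors for breakdown, by 0.67 ± 0.12. Of 8 genes of the isoprenoid branch 4 fell, among them Pdss2 of ubiquinone synthesis (-0.83 ± 0.16) and Fnta and Pggt1b, subunits of the prenyltransferases (-0.29 ± 0.07 and -0.22 ± 0.07). The percentages of all probe sets called are those given for the members above.

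Ears pretreated with dimercaprol had higher signal of many members than ears with mustard alone. Of the 27 members 14 were higher, none was lower and the median difference was 0.43, where 26.8% of all probe sets were called on array A and 16.5% on array B. Stard4 had a lowest, median and highest of 963, 1160 and 1430 in dimercaprol then mustard ears, against 603, 591, 434, 856 and 490 in the mustard ears of animals 1, 3, 5, 36 and 37. The groups did not overlap, and the difference was 1.00 ± 0.16 (adjusted p = 3.05e-05). Sc5d did not overlap either, with 530 to 686 in dimercaprol then mustard ears, against 232 to 418 in mustard ears, a difference of 0.92 ± 0.17 (adjusted p = 0.000156). Of all array A probe sets, 5.05% lay wholly above the mustard ears after dimercaprol. Both genes also have an array B probe set of higher mean scaled signal, 3023 for Stard4 and 887 for Sc5d, against 1076 and 473 for those used. With the probe set of highest scaled signal for each gene, all 14 calls remained. The overlap of groups is given only for the probe sets used. Aacs had 918, 1280 and 1800 in dimercaprol then mustard ears, against 495 to 1440 in mustard ears, a difference of 0.80 ± 0.17. Sqle had 2820, 3230 and 4180 in dimercaprol then mustard ears, against 1250 to 3830 in mustard ears, a difference of 0.61 ± 0.16. Mustard ears 5 and 36 reached into the pretreated range for Aacs, and ear 36 alone did so for Sqle.

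Cell-type markers were counted in the same comparison, where 26.8% of all probe sets were called on array A and 16.5% on array B. Neutrophil markers were lower in 3 of 5 cases, with a summed array A signal of 909 to 1160 in dimercaprol then mustard ears, against 1030 to 3080 in mustard ears. Of basal keratinocyte markers 3 of 8 were higher and 1 lower, of differentiating keratinocyte markers 3 of 10 higher and 2 lower, and of sebaceous gland markers 2 of 13 higher and 3 lower. Macrophage markers were lower in 2 of 10 cases, and 1 of 6 adipocyte markers was higher. Their part in the members' difference was not tested.

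By role, the members higher after dimercaprol were 2 of 7 mevalonate enzymes (Aacs and Mvd), 3 of 5 prenyl and squalene enzymes (Fdft1, Sqle and Fdps), 6 of 9 enzymes after lanosterol (Sc5d, Msmo1, Lbr, Hsd17b7, Cyp51 and Ebp) and 3 of 6 regulators and carriers (Stard4, Srebf1 and Srebf2). Idi2 had 114, 343 and 902 in dimercaprol then mustard ears, against 240 to 3210 in mustard ears, a difference of -1.50 ± 0.63 that was not called (adjusted p = 0.0943). Idi1 had 2570, 3600 and 4170 in dimercaprol then mustard ears, against 2210 to 3810 in mustard ears, a difference of 0.30 ± 0.18 (adjusted p = 0.216). Srebf2 was 921, 1050 and 1360 in dimercaprol then mustard ears, against 650 to 1170 in mustard ears, a difference of 0.43 ± 0.14 (adjusted p = 0.018).

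The number of members called after dimercaprol depended on the mustard ears and on the model. It was 9 without mustard ear 3, 8 without ear 37 and 3 without ears 5 and 37 (Stard4, Sc5d and Aacs). It was 4 with the Gapdh ratio as a covariate, 1 with array brightness (Stard4), 1 with a fixed effect per animal (Aacs, at 1.07), and 26 without rescaling, where 82.6% of all array A and 24% of all array B probe sets were called as higher, the median of all array A probe sets was 0.76 and 3 members lay below the median of their array.

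In the neighbouring lists, dimercaprol then mustard ears had 1 higher and 1 lower of 8 other SREBP-2 targets, against mustard ears (Acly at 0.44 ± 0.12 and Fabp5 at -0.69 ± 0.13). Of 16 genes of efflux, storage and oxysterols 3 were higher (Mylip, Abca1 at 0.93 ± 0.22 and Nceh1) and 2 lower (Lcat, which esterifies plasma cholesterol, and Abca12, a lipid carrier of the epidermis). Of 8 genes of the isoprenoid branch 2 were higher (Pdss2 and Fnta). The shares of all probe sets called are those given for this comparison above.

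Octylhomovanillamide before mustard gave 10 higher members, none lower and a median difference of 0.41, where 17.1% of all probe sets were called on array A and 9.54% on array B. This comparison and the 2 others of pretreated ears share the 5 mustard ears. Stard4 had 1020, 1210, 814, 1380 and 919 in the octylhomovanillamide then mustard ears of animals 27, 28, 29, 30 and 33, against 434 to 856 in mustard ears. The highest mustard ear lay above the lowest pretreated ear, and the difference was 0.84 ± 0.17 (adjusted p = 0.00136). Aacs had 1210, 1320, 1110, 1240 and 1440 in these ears, against 495 to 1440 in mustard ears, a difference of 0.73 ± 0.18 (adjusted p = 0.00483). Sqle had 2630, 3800, 3450, 3550 and 2610, against 1250 to 3830 in mustard ears, a difference of 0.54 ± 0.17 (adjusted p = 0.0246). Mustard ear 36 alone reached the pretreated range for Aacs, and ears 1 and 36 did for Sqle.

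The other members called as higher after octylhomovanillamide were Mvk, Srebf1, Lbr, Sc5d, Hsd17b7, Msmo1 and Fdft1, at 0.51 to 0.78. Idi2 had 818, 134, 936, 526 and 21.5 in these ears, against 240 to 3210 in mustard ears, a difference of -1.71 ± 0.66 (adjusted p = 0.0889). Ear 33 lay within the range of the methylene chloride ears for Idi2, while 24 of its 27 members lay below the methylene chloride mean. No member was called with the Gapdh ratio, with array brightness, with a fixed effect per animal or without ears 5 and 37. The count was 4 without mustard ear 3, 3 without ear 37, 5 without ear 5 and 20 without ear 36, and 3, 3 and 6 without the pretreated ears 28, 30 and 33. Without rescaling it was 26, where 67.7% of all array A and 24.2% of all array B probe sets were called as higher. Of the cell-type markers, 2 of 5 neutrophil and 2 of 10 macrophage markers were lower, 2 of 10 differentiating keratinocyte markers were higher, and of 13 sebaceous gland markers 1 was higher and 2 lower. The shares of all probe sets called are those given for this comparison above, and the part of the markers was not tested. In the same comparison Acly was higher (0.44 ± 0.12) and Fabp5 lower (-0.56 ± 0.13) of the 8 other SREBP-2 targets, 3 of 16 efflux and storage genes were higher (Abca1, Mylip and Nceh1) and 1 of 8 isoprenoid genes was (Fnta).

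Indomethacin before mustard gave 2 higher members, Stard4 and Sc5d, and a median difference of 0.01, where 1.8% of all probe sets were called on array A and 3.16% on array B. Stard4 had 644, 881 and 1190 in indomethacin then mustard ears, against 434 to 856 in mustard ears, a difference of 0.62 ± 0.16 (adjusted p = 0.0414). Sc5d had 436 to 615 in indomethacin then mustard ears, against 232 to 418 in mustard ears, with no overlap and a difference of 0.62 ± 0.17 (adjusted p = 0.0496). Wholly above the mustard ears lay 0.646% of all array A probe sets. Aacs had 654, 821 and 998 in indomethacin then mustard ears, against 495 to 1440 in mustard ears, a difference of 0.09 ± 0.17 (95% interval -0.25 to 0.44). Idi2 had 390, 980 and 1400, against 240 to 3210 in mustard ears, a difference of -0.16 ± 0.63 (-1.43 to 1.10). Both calls lie close to the threshold: none remained without ear 3, 5 or 37, with either covariate, with a fixed or random effect per animal, with no filter or with quantile normalization, and 5 members were called without ear 36. Stard4 and Sc5d each have a probe set on array B with higher scaled signal than the one used. With the probe set of highest scaled signal for each gene, 1 of the 2 calls remained. No gene of the 3 neighbouring lists was called, and of the cell-type markers 2 of 13 sebaceous gland markers were lower and 1 of 10 differentiating keratinocyte markers was higher.

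**Figure D4:**
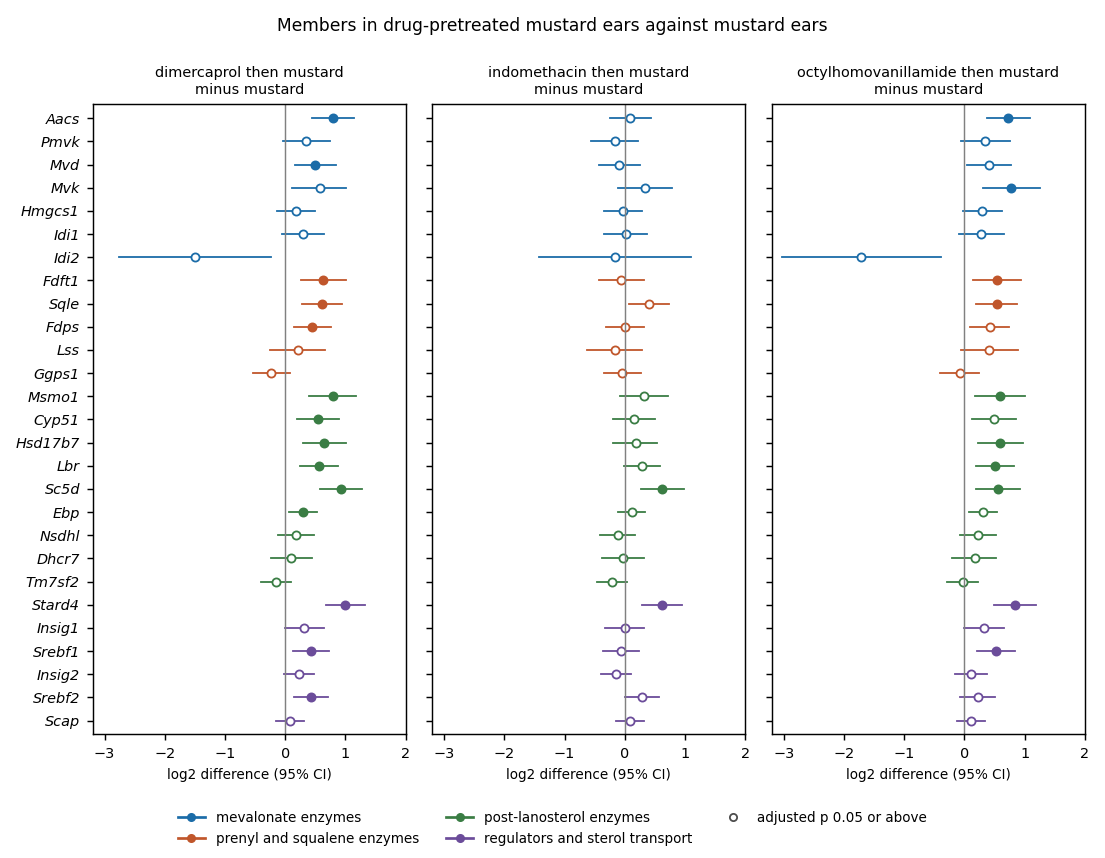
Log2 difference (x axis) of each of the 27 members (y axis, grouped by role) between ears given a drug before mustard and ears with mustard alone; bars are 95% confidence intervals and filled points are called. After dimercaprol 14 members are called as higher, after octylhomovanillamide 10 and after indomethacin 2, and Idi2 lies left of 0 in each panel without a call; the 3 panels share the 5 mustard ears.

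Set against methylene chloride ears, which these 3 comparisons and that of mustard alone share, the pretreated groups fell into a wide range. After indomethacin and mustard 21 members were lower and Scap was higher, with a median of -0.57, where 35.9% of all probe sets were called on array A and 12.7% on array B. In that comparison 10 members, all on array A, had all 6 pretreated ears below all methylene chloride ears, which 2.26% of all array A probe sets did. Among them was Aacs, with 654, 821 and 998 in indomethacin then mustard ears, against 1380, 1730 and 2240 in methylene chloride ears (-1.10 ± 0.13, adjusted p = 1.21e-08). Insig2 was -0.74 ± 0.09 and Pmvk -1.03 ± 0.15. All 6 ears lay above the methylene chloride range for Idi2, as for 0.954% of all array B probe sets. That share carries no weight for Idi2 either. Idi2 was at least 7.87-fold higher by the bound used above. Sebaceous gland markers fell in 8 of 13 cases, with a summed array A signal of 55000 to 64700 in indomethacin then mustard ears, against 66600 to 99800 in methylene chloride ears. Basal keratinocyte markers fell in 5 of 8, and the part of both in the members' fall was not tested. Srebf2 was not called, at -0.04 ± 0.11. With a fixed effect per animal 15 members were called, 13 lower and 2 higher. The higher ones include Idi2, whose call carries no weight.

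After dimercaprol and mustard 3 members were lower than in methylene chloride ears (Tm7sf2, Insig2 and Pmvk, at -0.51 to -0.36), with a median of -0.24. Idi2 had 114, 343 and 902 in these ears, against 16.4, 25.3 and 230 in methylene chloride ears, at least 3.02-fold higher by the same bound, and the groups overlapped. Of all probe sets, 3.05% were called on array A and 0.729% on array B. After octylhomovanillamide and mustard 2 were lower (Insig2 at -0.49 ± 0.10 and Msmo1 at -0.57 ± 0.16), with a median of -0.26, where 2.76% and 0.538% of all probe sets were called on arrays A and B. By the same bound Idi2 was at least 2.37-fold higher, with ear 33 inside the methylene chloride range. Sebaceous gland markers fell in 4 of 13 cases after dimercaprol and in 2 after octylhomovanillamide, and basal keratinocyte markers in 2 of 8 after either. In the per-ear counts, the median number of members below the methylene chloride mean was 21 in dimercaprol, 23 in indomethacin, 22 in octylhomovanillamide and 25 in mustard-alone ears, against 14 in the methylene chloride ears themselves. With a fixed effect per animal no member was called in either comparison. Insig2 was the member lower than methylene chloride in all 4 mustard groups.

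The drugs were also set against each other before mustard, at doses and volumes that differ, in 3 pairs whose p-values were adjusted within each pair over all probe sets. Dimercaprol against indomethacin gave 6 higher members and none lower, where 10.5% of all probe sets were called on array A and 1.78% on array B. Aacs had 918, 1280 and 1800 in dimercaprol then mustard ears, against 654, 821 and 998 in indomethacin then mustard ears, and differed by 0.71 ± 0.16 (adjusted p = 0.00473). The lowest dimercaprol ear lay below the 2 highest indomethacin ears, and the other 5 above all of them. Fdft1, Mvd, Srebf1, Fdps and Insig2 were also higher, by 0.38 to 0.69. Idi2 stood at -1.33 (95% interval -2.54 to -0.13, adjusted p = 0.292). With a fixed effect per animal none of the 6 was called, and with array brightness 3 were.

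Octylhomovanillamide against indomethacin gave 2 higher members, Aacs (0.64 ± 0.17, no overlap, adjusted p = 0.0397) and Srebf1 (0.60 ± 0.15, adjusted p = 0.0324), where 2.07% and 0.0463% of all probe sets were called on arrays A and B. In this pair 1.12% of all array A probe sets lay wholly above the indomethacin then mustard ears. No member was called with a fixed effect per animal, without rescaling or without octylhomovanillamide ear 28, 30 or 33, and 1 was without ear 27 or with either covariate. Dimercaprol against octylhomovanillamide gave no called member and no called probe set on either array (0%). At an unadjusted p under 0.05, 1 of 27 members passed, Sc5d at 0.36 (95% interval 0.01 to 0.71), where 2.08% of all probe sets passed on array A and 3.39% on array B. The interval was -0.28 to 0.41 for Aacs, -0.17 to 0.49 for Stard4 and -1.05 to 1.48 for Idi2, so that differences within these bounds are not excluded.

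Without mustard, no member passed the limma test after any of the drugs. The ethanol ears are left ears of animals given a drug on the right ear. Against them, 0 of 24 members on array A and 0% of all probe sets were called for dimercaprol, indomethacin and octylhomovanillamide. At an unadjusted p under 0.05 there were 3, 5 and 0 of the 24 members. Of all probe sets kept, 773, 1117 and 996 passed (4.85%, 7% and 6.24%). The 3 after dimercaprol were Srebf2 (0.57), Insig2 (-0.33) and Mvk (-0.30), and the 5 after indomethacin were Lss (-0.48), Scap (-0.41), Lbr (-0.32), Mvk (-0.29) and Aacs (-0.26). Aacs averaged 1430 ± 127 in dimercaprol ears (SD, n = 4), 1220 ± 147 in indomethacin ears (SD, n = 4) and 1410 ± 177 in octylhomovanillamide ears (SD, n = 5), against 1460 ± 74.9 in ethanol ears (SD, n = 3). Idi2, Insig1 and Hsd17b7 were not measured in these animals, which had no array B.

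The difference of differences sets the change from mustard ears to pretreated ears against the change from ethanol ears to drug ears without mustard. As no ethanol is named for the mustard ears, it still holds any effect of ethanol. For dimercaprol it was called for 3 of 24 members, Sc5d (0.97 ± 0.28, adjusted p = 0.021), Aacs (0.83 ± 0.25, adjusted p = 0.0271) and Stard4 (0.83 ± 0.25, adjusted p = 0.0284), where 8.61% of all array A probe sets were called. None remained without mustard ear 37, 1 was called without dimercaprol ear 508, and 10 were called without mustard ear 36. For octylhomovanillamide and indomethacin 0 of 24 members were called, where 1.85% and 0.0376% of all probe sets were. At an unadjusted p under 0.05 there were 9 and 4 members, where 17.8% and 12.4% of all probe sets passed. For Aacs the value was 0.79 ± 0.25 after octylhomovanillamide (adjusted p = 0.0744) and 0.35 ± 0.25 after indomethacin (adjusted p = 0.57).

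The methylene chloride ears themselves were set against naive ears, which come from separately numbered animals, so that vehicle and experiment cannot be told apart. Of 24 members 1 was called, where 21.5% of all probe sets were. Pmvk, the phosphomevalonate kinase, had 913, 1210 and 1830 in methylene chloride ears, against 836, 646, 729, 706 and 690 in the naive ears, a difference of 0.73 ± 0.20 (adjusted p = 0.00711). No naive ear reached the lowest methylene chloride ear, and how many of all probe sets separated in this way was not counted. The call was lost without naive animal 502 or 503. Pmvk averaged 715 ± 305 in mustard ears (SD, n = 5) and 816 ± 163 in ethanol ears (SD, n = 3), beside 740 ± 82.6 in naive animals (SD, n = 3, both ears of an animal averaged).

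Within the 21 methylene chloride ears, members were compared with Sqle in 26 correlations. After Benjamini-Hochberg adjustment of permutation p-values over the 26, Pearson's r was called for 9 members. Their r lay at least 0.53 from 0, as it did for 8.48% of all array A and 5.65% of all array B probe sets kept. The highest were Nsdhl (r = 0.83, rho = 0.54), Idi1 (r = 0.79, rho = 0.58), Pmvk (r = 0.76, rho = 0.55) and Lbr (r = 0.75, rho = 0.69), with adjusted p = 0.00603, 0.00139, 0.00139 and 0.00139. By Spearman's rho only Lbr passed (permutation test, adjusted p = 0.0239), with 0.0891, 0.0866 and 0.0891 for Nsdhl, Idi1 and Pmvk. Without the 2 ears farthest from the median of Sqle, r was 0.51, 0.53, 0.56 and 0.58 in the order given. Sc5d was the member with a negative r past the threshold (r = -0.53, adjusted p = 0.0402), and -0.21 without those 2 ears. The median r over all pairs of the 27 members was 0.21. Without rescaling 24 of the 26 correlations passed, all positive, so that these values rest on the scaling of the arrays, and the methylene chloride ear of animal 1 stood apart in them, with a median member difference of 0.45 from the group mean.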

How the data were processed

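Total RNA (10 µg) from 8 mm ear biopsies was labelled and hybridized to arrays A (64 ears) and B (43 of these ears). The authors deposited linear intensity values, made with MAS5 per the submitters' processing notes; its settings and the detection calls were not used here. The number of ears limits the precision.

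Control probe sets (64 per array) were dropped. Signals were multiplied per array to bring the 2% trimmed mean to 500, and log2(scaled signal + 16) was used for probe sets with a mean of at least 100, 15953 on array A and 17287 on array B. Models were fitted per array in R 4.3.3 using limma 3.58.1 (lmFit, then eBayes with trend) and the data.table package (1.17.8). The mustard groups and methylene chloride ears shared 1 fit, the array A ears without mustard another (naive ears of an animal averaged), and all array A ears entered the fit for differences of differences and for the naive comparison. Tests were 2-sided. The scripts were tested on simulated data. Correlations used 100000 permutations.

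Replicates are ears of separate animals as the labels number them. Labels pair the left and right ear of an animal. After removal of group means their consensus correlation in the mustard fit was 0.133 on array A and 0.0728 on array B. In the array A fit of ears without mustard it was -0.141. The animal as a fixed or random block was an alternative, with others named in the closing section. Probe sets were named through the platform annotation, where 20380 of array A and 14661 of array B had 1 symbol, 691 and 245 several and 1555 and 7605 none.

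Values in every ear are given for the 6 members with the smallest adjusted p with mustard alone (Aacs, Idi2, Stard4, Msmo1, Cyp51 and Sqle) and for Idi1, Srebf2 and Insig1; up to 3 genes of each neighbouring list with the smallest adjusted p are named. Members, lists and rules were chosen with earlier results of these data known, and Sc5d and Pmvk were given more values after theirs were seen.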

Additional observations from a re-analysis of the deposited data

Results flagged for a closer look

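In groups of 4 to 10 ears, 16 of 180 gene and group pairs held an ear far from the rest by Dixon's criterion, where chance gives about 9 (1 in 20). No explanation was weighed. With mustard alone, Lss was 3160 in ear 36, against 1020 to 1370 in the others, Ggps1 was 590 in ear 37 (others 235 to 285) and Scap was 1520 in ear 37 (others 2330 to 2620). Ear 37 is one of the ears with low array brightness and a high Gapdh ratio.

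After dimercaprol and mustard, ear 6 was high in Insig1 at 3890 (others 2810 to 3080) and in Srebf2 at 1360 (others 921 to 1060). Ear 12 was low in Idi1 at 2570 (others 3500 to 4170) and in Tm7sf2 at 389 (others 559 to 653), and ear 8 was low in Insig2 at 820 (others 1130 to 1250). After indomethacin and mustard, Ebp was 1710 in ear 22 (others 1960 to 2110). After octylhomovanillamide and mustard, Hsd17b7 was 17000 in ear 27 (others 23000 to 25900).

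Without mustard, Cyp51 was 1820 in dimercaprol ear 506 (others 2610 to 2760) and Nsdhl was 2450 in dimercaprol ear 507 (others 1800 to 1850). Srebf1 was 2970 in indomethacin ear 515 (others 2110 to 2210). With octylhomovanillamide alone, ear 520 had 3550 for Idi1 (others 2340 to 2590) and 1310 for Lss (others 1560 to 1640), and ear 519 had 715 for Tm7sf2 (others 774 to 796).

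The change with dimercaprol and its ethanol before mustard differed from that of dimercaprol against ethanol without mustard for Aacs, Sc5d and Stard4. The differences of differences were 0.83 ± 0.25, 0.97 ± 0.28 and 0.83 ± 0.25, each higher before mustard. Adjusted p was 0.0271, 0.021 and 0.0284 by limma over all array A probe sets, of which 8.61% were called. Any effect of ethanol stays in these values. None of the 3 was called without mustard ear 37.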

How the results depend on the processing

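The alternatives were signals without rescaling, quantile normalization, a pseudocount of 64, eBayes without trend, a signal minimum of 300 or none, the mean of a gene's probe sets or the probe set of highest scaled signal, the animal as a fixed or random block, the Gapdh ratio or array brightness as a covariate, and leaving out ears, singly only from groups of up to 5. Those for differences of differences and naive ears were chosen after seeing the data. With mustard alone, 19 to 26 members were called in all of them, and the median stayed negative. Leaving out each mustard ear gave 22 to 24. For octylhomovanillamide against mustard, leaving out an ear of either group gave 3 to 20 calls, and leaving out a mustard ear gave 8 to 20 for dimercaprol and 0 to 5 for indomethacin.

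Members called under settings that moved the count were as follows, with Idi2 counted, though its calls against methylene chloride carry no weight. For dimercaprol then mustard against mustard (14), the Gapdh ratio gave 4, array brightness 1, the fixed animal block 1, leaving out ears 5 and 37 gave 3 and no rescaling 26. For octylhomovanillamide then mustard against mustard (10), these gave 0, 0, 0, 0 and 26. For indomethacin then mustard against mustard (2), these gave 0, 0, 0, 0 and 10 (33.2% of all array A probe sets were then called as higher), eBayes without trend, the mean of probe sets, the probe set of highest scaled signal and the pseudocount of 64 gave 1 each, and no filter, quantile normalization and the random block gave 0. Against methylene chloride, the fixed block gave 0 after dimercaprol (4), 15 after indomethacin (23) and 0 after octylhomovanillamide (3), and no rescaling gave 1 after dimercaprol and 1 after octylhomovanillamide. For octylhomovanillamide, array brightness, the mean of probe sets and leaving out ears 5 and 37 gave 5 each and the random block 6, and leave-one-out gave 1 to 5. Dimercaprol against indomethacin (6) gave 3 with array brightness and 0 with the fixed block. Octylhomovanillamide against indomethacin (2) gave 1 with either covariate, 0 with the fixed block and 0 without rescaling, and 0 to 3 with each octylhomovanillamide then mustard ear left out. The difference of differences gave 9 members without rescaling for dimercaprol (3) and 0 to 10 with ears left out, and 0 to 8 for octylhomovanillamide (0). Methylene chloride against naive (1) gave 0 to 1 without each naive animal. Correlations with Sqle (9) numbered 24 without rescaling. The pairing of ears by animal is real in the design, and the replicate block changed no other count by over 1.5 times.

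Directions turned without rescaling for Ggps1 (-0.47 with mustard alone, adjusted p = 0.00916, and 0.56 and 0.55 after dimercaprol and octylhomovanillamide against mustard) and Tm7sf2 (0.69 and 0.65 in the same 2 comparisons), as the median of all array A probe sets then moved by -0.52, 0.76 and 0.63. The cause of the other changes was not tested. Low signal over background limits Idi2 in methylene chloride ears.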

Other observations

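In pretreated animals, too, the right ear with mustard could be set beside the left ear with methylene chloride of the same animal. After indomethacin 22 of the 27 members were lower on the right ear in all 4 animals measured on both sides and 2 were higher in all 4. After dimercaprol these counts were 13 and 3 in 4 animals, and after octylhomovanillamide 13 and 2 in 5 animals. Of all array A probe sets, 20.8% were lower and 19.5% higher in every animal after indomethacin, 14.3% and 13.3% after dimercaprol and 7.9% and 6.34% after octylhomovanillamide, where 5 animals make one sign in every animal rarer than 4 do. The corresponding shares on array B, which holds 3 of the members, were 11.6% and 12.6%, 8.97% and 10.3%, and 4.48% and 4.46%. Scap, the SREBP escort, was higher on the right ear in every one of these animals, by 0.06 to 0.41 on the log2 scale after dimercaprol, 0.24 to 0.57 after indomethacin and 0.14 to 0.59 after octylhomovanillamide. With mustard alone it was higher in 3 of 4 animals, from -0.29 to 0.37. Idi2 was higher on the right ear in all 4 dimercaprol animals, with 114 to 364 on the right and 21.9 to 120 on the left, and in all 4 indomethacin animals, with 390 to 1300 on the right and 16.9 to 230 on the left. It was higher in 4 of 5 octylhomovanillamide animals, and animal 33 had 21.5 on the right ear and 28.7 on the left, both under the minimum of 100. These values were chosen after they were seen and no test was made of them.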
